A study of Mus musculus with 10 samples.

Results

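The proximal segment of mouse chromosome 4 is the stretch from 3 to 60 Mb, next to the centromere, where regions of IKZF2 CUT&RUN signal lie closer together than elsewhere in these files. Its members are the regions on chromosome 4 whose start lies between 3000000 and 60000000 in mm10. There were 8833 of them among 151133 regions in all, or 5.845%. Both the number of regions and their read level had been seen before the segment was delimited. Its density and level are therefore given as a description, with no test. The regions are set against 5762 regions on the rest of chromosome 4 and 135962 on the other 18 autosomes.

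The cells were RN2, a C57BL/6 mouse leukaemia line that carries the MLL-AF9 fusion and NRASG12D, and all of them had received a retrovirus encoding murine IKZF2 and RFP before they were sorted and cultured. IKZF2 was thus supplied from a vector in every sample, and no sample with endogenous IKZF2 alone was analysed here. The 6 samples used an anti-IKZF2 antibody and form 3 libraries with 2 technical replicates each. The labels also describe 4 samples with a control rabbit antibody, which were not analysed here, so the level of the segment without the antibody is not known here.

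IKZF2, also called Helios, is an Ikaros-family transcription factor. Members of this family recruit chromatin complexes to DNA and shape lymphoid and haematopoietic gene programs, and their zinc fingers bind sequences around a GGGAA core. In CUT&RUN an antibody tethers a nuclease to the protein under study in permeabilised cells, and the fragments it releases are sequenced. A region called from such data marks a place where fragments piled up. The mouse chromosome 4 segment holds genes of many kinds, including the Src-family kinase gene Lyn, the B cell regulators Pax5 and Bach2, the receptor gene Tgfbr1 and the pluripotency factor gene Klf4. At its far end lies the array of Mup genes, which encode near-identical major urinary proteins made in the liver.

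The promoters of 3 named segment genes are shown because a region of high signal overlapped each of them. They are the 250 bases before the gene start in the RefSeq table of GRCm38.p6 (mm10 coordinates), read 5′ to 3′ on the gene's own strand. Capitals mark GGGAA, or TTCCC where the core lies on the other strand. Polr1e (chr4:45018359-45018608, plus strand) encodes a subunit of RNA polymerase I, Aco1 (chr4:40143015-40143264, plus strand) encodes the cytosolic aconitase that also acts as an iron-regulatory protein, and Shb (chr4:45530829-45531078, minus strand) encodes an SH2-domain adaptor.
Polr1e: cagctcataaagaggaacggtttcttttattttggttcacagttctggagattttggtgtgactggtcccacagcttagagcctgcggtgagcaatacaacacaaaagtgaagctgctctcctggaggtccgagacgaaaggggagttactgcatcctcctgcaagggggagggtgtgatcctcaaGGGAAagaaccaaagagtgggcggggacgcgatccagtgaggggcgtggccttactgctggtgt
Aco1: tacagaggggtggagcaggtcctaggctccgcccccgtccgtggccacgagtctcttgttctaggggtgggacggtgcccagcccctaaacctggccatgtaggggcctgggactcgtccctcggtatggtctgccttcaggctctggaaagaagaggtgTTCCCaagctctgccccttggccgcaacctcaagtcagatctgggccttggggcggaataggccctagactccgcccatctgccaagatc
Shb: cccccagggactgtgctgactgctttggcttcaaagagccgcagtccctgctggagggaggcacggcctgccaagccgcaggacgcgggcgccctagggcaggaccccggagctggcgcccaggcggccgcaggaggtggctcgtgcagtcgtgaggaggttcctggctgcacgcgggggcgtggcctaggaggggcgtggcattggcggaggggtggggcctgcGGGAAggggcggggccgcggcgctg

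Each of the 3 promoters held a single match to the core. In Polr1e and Shb it lies inside the region that overlaps the promoter. In Aco1 it lies outside that region (chr4:40142837-40143085). Across the segment, 170 of 295 promoters held GGGAA on either strand of these 250 bases, or 57.6%, against 56.7% of the 20063 on all autosomes. Overlap with a region was counted over a window that adds the 50 bases after the start. Of the 106 segment windows that a region overlapped, 63.2% held the core, against 61.7% of overlapped windows on the rest of chromosome 4 and 59.5% on the other autosomes. These shares describe the windows and locate no binding site. A region overlapped 35.9% of the 295 segment windows, against 23.9% of 1072 windows on the rest of chromosome 4 and 25.3% of 18696 on the other autosomes, which restates the density that chose the segment.

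The libraries were shallow, which limits what a single region shows. The segment held 81942 to 114864 of the 1296355 to 1755015 reads in regions of technical replicate 2, and 17923 to 21938 of the 273896 to 326440 of technical replicate 1. In technical replicate 2 the median segment region held 8 to 12 reads, and in technical replicate 1 it held 2 in every library. Technical replicates of a library were summed, and levels are given as CPM (counts per 1000000 reads in regions) and as CPM per kb of region. Over the segment's regions the log2 CPM of 2 libraries correlated at 0.020 to 0.029, so the libraries hardly ordered single regions alike. Means over many regions were close between libraries. The labels do not say whether each library had its own culture, so SDs and p-values may reflect technical spread alone.

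Regions were packed more densely in the segment. It held 155.0 regions per Mb over 57 Mb, against 59.8 per Mb on the rest of chromosome 4 and 60.43 per Mb on the other autosomes, which makes it 2.59 and 2.56 times as dense. The regions covered 21350 bp per Mb in the segment, against 7660 and 7735 bp per Mb. Segment regions were slightly wider, with a median of 114 bp against 109 and 108 bp, and 12.4% of them reached 200 bp, against 8.54% and 8.65%. The 3 parts share one peak set, so there is no replicate error on these counts.

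The density was higher at every distance from genes. The segment is gene-poor, and 59.5% of its sequence lay over 50 kb from the nearest end of a protein-coding gene, against 44.6% of the rest of chromosome 4 and 49.2% of the other autosomes. Within 1 kb of a gene end the segment held 333.4 regions per Mb of such sequence, against 140.5 and 142.6. Over 50 kb from a gene end it held 127.7 per Mb, against 41.52 and 43.67. The ratio over the other autosomes was 2.34 within 1 kb, 2.66 at 1 to 5 kb, 2.58 at 5 to 50 kb and 2.92 beyond 50 kb, so every distance class was denser. Weighting the other parts to the segment's own mix of distances gave 54.26 regions per Mb for the rest of chromosome 4 and 56.67 for the other autosomes, at ratios of 2.86 and 2.73. In the 8 bins of 1 Mb without any gene end, the segment had a median of 97.5 regions (78 to 117), against 21 in 5 such bins (12 to 33) on the rest of chromosome 4 and 23 in 210 such bins (8 to 74) on the other autosomes. These gene-free bins of the segment did not overlap in number of regions with those of either other part. The density was known when the segment was chosen, so this follows in part from that choice. Over all bins of 1 Mb the ranges overlapped, at 65 to 324 in the segment, 12 to 131 on the rest of chromosome 4 and 2 to 163 on the other autosomes.

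**Figure D1:**
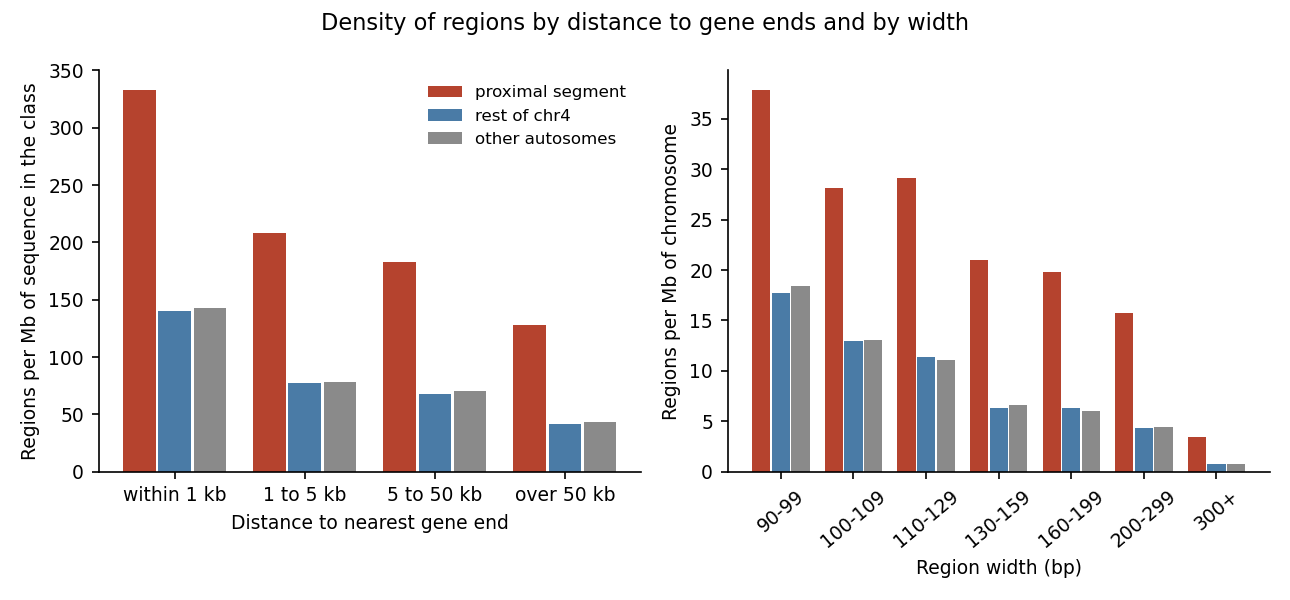
Regions per Mb by distance to the nearest protein-coding gene end (left, per Mb of sequence in that class) and by region width (right, per Mb of chromosome), for the proximal segment, the rest of chromosome 4 and the other autosomes. The segment's bars are the tallest in all 4 distance classes and all 7 width classes.

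Wide regions and regions of middle level were the most over-represented. The density ratio over the other autosomes was 2.06 for regions of 90 to 99 bp and 4.24 for regions of 300 bp or wider. By mean level, it was 0.61 under 4 CPM, 1.76 at 4 to 6 CPM, 3.39 at 6 to 8 CPM, 4.65 at 8 to 12 CPM, 3.34 at 12 to 20 CPM and 3.03 at 20 CPM or more. Regions under 4 CPM were thus the only class of these 6 that was sparser in the segment, at 1.4 per Mb against 2.14 on the rest of chromosome 4 and 2.3 on the other autosomes. Only 80 segment regions were that low. Calling regions depends on signal, so the number of regions and their level are not independent of each other.

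The level per region differed less than the number of regions. The mean per segment region was 7.569, 7.2 and 7.441 CPM in libraries 1, 2 and 3, against 6.611, 6.744 and 6.623 on the rest of chromosome 4 and 6.538, 6.56 and 6.551 on the other autosomes. In each library the segment was the highest of the 3 parts. When regions of the other autosomes were weighted to the segment's mix of 7 width classes and 4 distance classes, their mean was 6.852 ± 0.0194 CPM, against 7.403 ± 0.187 CPM in the segment (SD, n = 3 libraries). The ratio was 1.105, 1.054 and 1.083 in libraries 1, 2 and 3, with a mean of 1.08 ± 0.0255 (SD, n = 3). Per kb it was 1.088 ± 0.0203, from 54.99 ± 1.43 CPM per kb in the segment and 50.53 ± 0.42 in matched regions. Against matched regions of the rest of chromosome 4 the ratio was 1.075 ± 0.0322 for CPM and 1.08 ± 0.0263 for CPM per kb.

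All 6 samples lay above 1. In technical replicate 2 the matched ratio over the other autosomes was 1.097, 1.048 and 1.078 in libraries 1, 2 and 3, and in technical replicate 1 it was 1.141, 1.08 and 1.107. Library 2 gave the lowest ratio in both technical replicates and library 1 the highest. The other 18 autosomes, treated one at a time in the same way, lay between 0.9863 (chromosome 3) and 1.018 (chromosomes 11 and 17), and the rest of chromosome 4 at 1.009. The lowest of the 6 segment samples was thus above the 3-library mean of each of these chromosomes. The level was known when the segment was delimited, so this separation follows in part from that choice. Whole chromosomes also average over longer stretches, and from 140 to 150 Mb on chromosome 4 the ratio was 1.046.

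**Figure D2:**
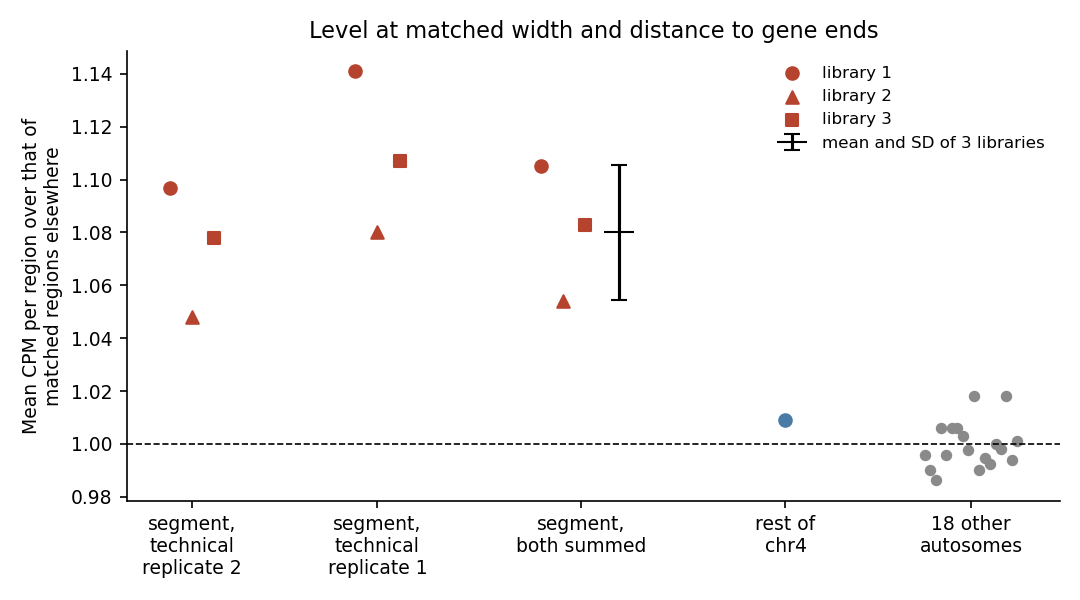
Mean CPM per region over that of regions of the other autosomes at matched width and distance to gene ends, for the segment in each library by technical replicate and with both summed (black cross and bar, mean and SD of 3 libraries), the rest of chromosome 4 and the 18 other autosomes (1 point each, mean of 3 libraries). All segment points lie at 1.048 or above, and all other points at or below 1.018; the axis does not start at 0.

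The ratio was lower in technical replicate 2 than in technical replicate 1 in 3 of 3 libraries. It averaged 1.074 in technical replicate 2 and 1.109 in technical replicate 1, a difference of -0.03488 ± 0.00833 (SD, n = 3). The two-sided exact sign-flip permutation test gave p = 0.25, the smallest p that 3 pairs allow. In technical replicate 2, 0.543 to 2.54% of segment regions held no read, against 1.25 to 3.97% on the rest of chromosome 4 and 1.11 to 4.03% on the other autosomes. In technical replicate 1 these shares were 29.9 to 36.9% in the segment, against 35.3 to 40.3% and 34.7 to 41.8%. Depth differed between the technical replicates in every library, and its part in the difference was not tested.

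The difference in level ran through most of the distribution. Of the segment regions, 70.1% lay above the median of their own width and distance class by the mean of 3 libraries, against 50.5% on the rest of chromosome 4. In single libraries the shares were 57.2, 54.1 and 57.4% in the segment, against 49.5, 50.5 and 50.3%. At matched width and distance, the segment's CPM was 1.07 to 1.09 times that of the other autosomes at the 10th, 25th, 50th, 75th and 90th percentiles, and 0.994 times at the 99th. The top of the distribution was therefore level with that of other chromosomes.

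The ratio also differed by kind of region. It was 1.114 ± 0.0097 for regions of 90 to 99 bp, lay between 1.085 and 1.097 in the 4 classes from 100 to 199 bp, and was 1.057 ± 0.0474 at 200 to 299 bp (SD, n = 3). The 195 regions of 300 bp or wider averaged 0.9669 ± 0.0558, with 1.009, 0.9035 and 0.9886 in libraries 1, 2 and 3. The ratio of levels was thus highest for the narrowest regions, and the ratio of densities for the widest. By distance, the ratio was 1.061 within 1 kb of a gene end, 1.037 at 1 to 5 kb, 1.093 at 5 to 50 kb and 1.083 beyond 50 kb. At 1 to 5 kb it was 0.9995 ± 0.0209 over the rest of chromosome 4, so no excess was seen there against that reference.

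Number and level together set the share of reads. The segment took 6.685, 6.36 and 6.572% of the reads in regions of libraries 1, 2 and 3, against 3.809, 3.886 and 3.816% for the longer rest of chromosome 4. Per Mb of chromosome this was 1147 ± 29 CPM in the segment, against 398.2 ± 4.4 CPM on the rest of chromosome 4 and 395.8 ± 0.665 CPM on the other autosomes (SD, n = 3). The ratio over the rest of chromosome 4 was 2.97, 2.77 and 2.91 in libraries 1, 2 and 3, and 2.75 to 3.16 in the 6 samples. Of this, the number of regions made 2.59 times and the mean level per region, without matching, 1.112 times.

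Most bins of the segment were dense. Bins of 1 Mb held 65 to 324 regions in the segment (median 137, 57 bins), against 12 to 131 on the rest of chromosome 4 (median 60, 96 bins) and 2 to 163 on the other autosomes (median 59, 2241 bins). The segment's lowest bin, at 42 Mb, lay below the medians of 80 and 84 regions for bins of 20 to 39 gene ends on the rest of chromosome 4 and the other autosomes. Bins of 5 Mb separated the parts more clearly, again in the density that was known when the segment was chosen. The 11 segment bins of 5 Mb held 515 to 1151 regions (median 753), and 9 of them held more than the highest of 434 bins on the other autosomes, which was 550 on chromosome 15. Only 4 of those 434 bins reached the lowest segment bin. Chromosome 11, the densest other autosome, held 74.14 regions per Mb and chromosome 12, the sparsest, 52.31.

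Within the segment the density varied more by block than the level. From 3 to 10 Mb there were 179.3 regions per Mb at a matched ratio of 1.132 ± 0.0443 (SD, n = 3). From 20 to 30 Mb, the sparsest block, there were 111.6 per Mb at 1.048 ± 0.0375, and from 40 to 50 Mb, the densest, 220.2 per Mb at 1.088 ± 0.0213. The 3 other blocks held 129.9 to 165.5 per Mb at 1.067 to 1.072. The dense block from 40 to 50 Mb had the largest share of its regions within 5 kb of a gene end among the 6 blocks, 27%. Across the 57 bins the number of regions correlated with the number of gene ends at r = 0.55 (0.75 on the rest of chromosome 4 and 0.56 on the other autosomes, bins of one peak set). In every library all 6 blocks had a ratio above 1, the lowest being 1.011 for 20 to 30 Mb in library 2.

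Beyond 60 Mb both measures were low at first and higher again towards the far end. From 60 to 70 Mb there were 39.3 regions per Mb at 0.9612 ± 0.036, and from 70 to 80 Mb 28.1 per Mb at 0.9623 ± 0.00871. From 130 to 140 and 140 to 150 Mb the ratio was 1.039 ± 0.0336 and 1.046 ± 0.00986, close to the 1.048 of the segment's lowest block, while the density was 90 and 68.1 per Mb. By level alone, the far end of the chromosome therefore came near the segment's lowest block, and by density it did not.

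**Figure D3:**
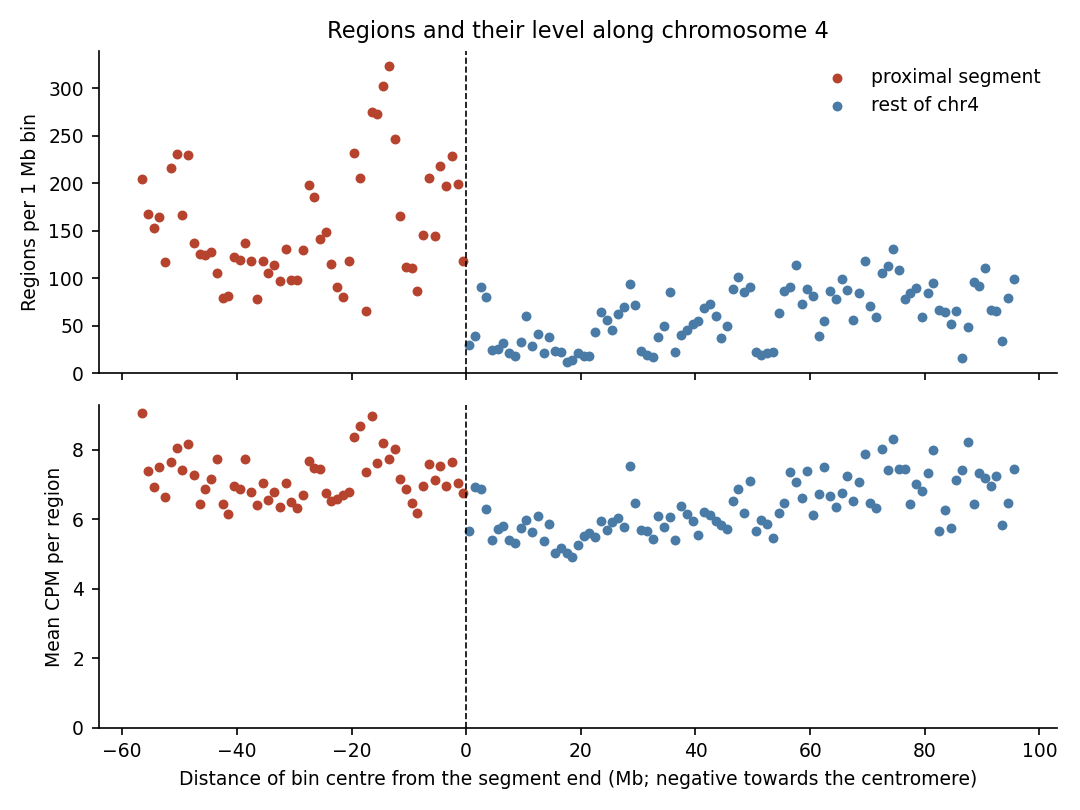
Number of regions per 1 Mb bin (top) and mean CPM per region of each bin over 3 libraries (bottom) along chromosome 4, by distance from the segment end in Mb, with negative values towards the centromere. Bins of the segment hold 65 to 324 regions and those beyond its end 12 to 131, while mean levels overlap, at 6.148 to 9.073 CPM in the segment and 4.914 to 8.32 CPM beyond it.

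The number of regions stepped at the end of the segment. A 2-level least-squares fit to 1 Mb bins from 3 to 120 Mb placed the step at 60 Mb, with a mean of 155 regions per bin before it and 48.6 after it. CPM in regions per Mb stepped at 60 Mb as well, at 1150 before and 304 after. In bins of 0.1 Mb the step fell at 59.9 Mb. A fit of 2 constant rates to the starts of 2048 regions between 50 and 70 Mb placed it at 59973852, with 165.7 regions per Mb before and 39.4 after, and positions from 59955594 to 60043063 were within 2 log units of likelihood of the best. That span rests on constant rates, and counts were uneven on both sides, so it does not measure the uncertainty of the boundary. The 15 bins of 0.1 Mb before 60 Mb held 9 to 24 regions (median 14), against 0 to 6 (median 2) in the 15 bins after it, all of which lie in the Mup gene array. Further on, single bins reached 10 at 61.7 Mb and 21 at 62.6 Mb, within the range before 60 Mb. Counts before the end were also uneven, with 37 at 57.1 Mb and 10 at 59.9 Mb.

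The level changed near the same place. The step in matched log2 level lay at 59 Mb over 3 libraries, with 0.10 before it and -0.04 after it, and explained 57.9% of the variance between bins. It lay at 56, 59 and 60 Mb in libraries 1, 2 and 3 and between 58 and 67 Mb in the 6 samples. From 58 to 59 Mb there were 199 regions at 7.036 ± 0.446 CPM, from 59 to 60 Mb 118 regions at 6.769 ± 0.186 CPM, from 60 to 61 Mb 30 regions at 5.662 ± 0.3 CPM and from 61 to 62 Mb 39 regions at 6.931 ± 0.581 CPM. The matched ratios of these windows were 1.04, 0.988, 0.867 and 1, so the last Mb of the segment already lay at the level of other autosomes.

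The step in number coincides with the start of the Mup array. The 24 Mup genes of the annotation, Mup4 to Mup21, span 2.19 Mb (chr4:59956804-62150841), and reads from near-identical copies are hard to place. The array held 85 regions, or 38.7 per Mb, against 120 per Mb in the 1 Mb before it and 88 per Mb in the 1 Mb after it. The matched ratio was 0.943 ± 0.044 in the array, 0.983 ± 0.054 before it and 0.99 ± 0.036 after it (SD, n = 3). Without the bins at 60 and 61 Mb the step in number moved to 62 Mb, the next bin that remained, so the end of the segment cannot be told apart from the repeat array to better than about its 2.19 Mb. How far the placement of reads in the array set these counts was not tested.

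**Figure D4:**
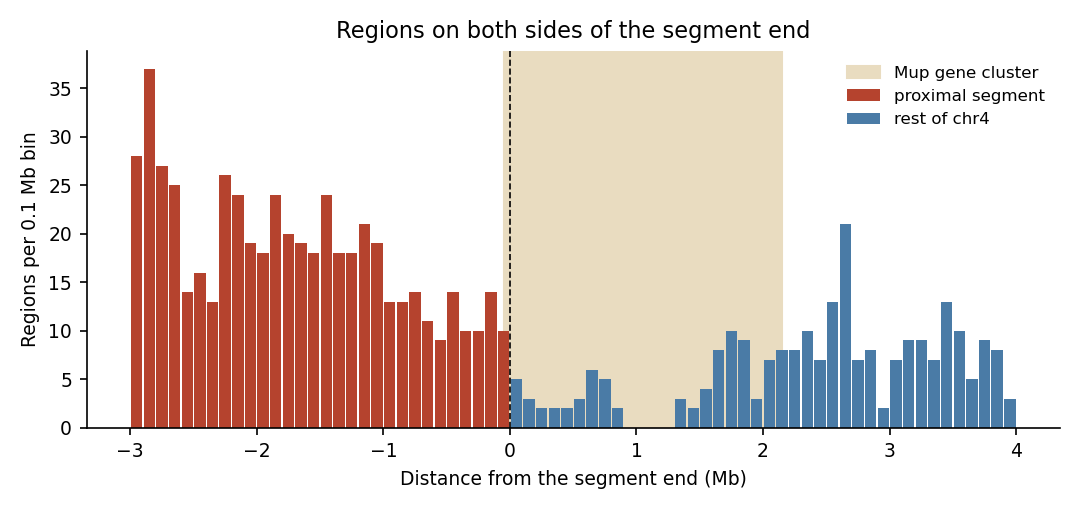
Number of regions per 0.1 Mb bin against distance from the segment end in Mb, with the span of the Mup gene array shaded. Bins in the last 1.5 Mb of the segment hold 9 to 24 regions and those in the first 1.5 Mb beyond it, inside the array, 0 to 6; a later bin reaches 21.

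The regions at the boundary itself were ordinary. The last 3 inside, starting at 59962951, 59973852 and 59986224, had 54.22 ± 43.4, 36.97 ± 25.4 and 43.25 ± 21.7 CPM per kb (SD, n = 3). The first 3 outside, starting at 60020763, 60031181 and 60036034, had 44.78 ± 29.1, 58.15 ± 28.7 and 54.27 ± 23.0 CPM per kb. Inside and outside overlapped.

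The strongest regions of the segment lay at its centromeric tip. They were chr4:3064448-3064542, chr4:3065220-3065318 and chr4:3063958-3064109, about 107 kb from the vomeronasal receptor gene Vmn1r2. The first had 806.5, 609.7 and 439.5 CPM per kb in libraries 1, 2 and 3, with a mean of 618.6 ± 184. The others averaged 440.1 ± 186 and 373 ± 88.9 CPM per kb. All 3 were lowest in library 3. The next region, over the start of Polr1e (chr4:45018525-45018646), had 296, 310.5 and 166.8 CPM per kb, a mean of 257.8 ± 79.1, and was the highest at a gene.

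The remaining 4 of the 8 highest regions lay in or near genes of different roles. A region 208 bp from B4galt1, a galactosyltransferase gene, had 260.4, 176.1 and 219.8 CPM per kb in libraries 1, 2 and 3. One 3443 bp from Nans, the sialic acid synthase gene, averaged 212.7 ± 58.7 CPM per kb, and one 33 bp from Bpnt2, which encodes a Golgi nucleotide phosphatase, averaged 211.8 ± 77.5. One over an end of Ndufaf6, a gene for an assembly factor of respiratory complex I, averaged 205.4 ± 76.7 (SD, n = 3 each). The last 3 were each highest in library 2.

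Nearly every gene of the segment had a region. A region lay within 5 kb of an end of 309 of 328 protein-coding genes, or 94.2%, against 78.3% of 973 genes on the rest of chromosome 4 and 77.2% of 19337 on the other autosomes. This share also follows from the density and has no test. Genes had a mean of 4.48 such regions in the segment, against 1.74 and 1.76. A gene's value was taken as its highest region, whose median was 69.7 CPM per kb in the segment, against 58.4 and 58.6. More regions per gene raise the highest of them, so these medians do not compare like with like. The genes with the most regions were Stra6l with 14, Shb with 13 and Tmem8b with 12. Neighbouring genes can share a region, as Creb3 and Tln1 do. The 2 highest and the lowest gene of each list below were picked by their mean over these 3 libraries. Where such a gene lies above or below others in each library, this follows in part from that choice.

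The signalling kinases and receptors all had a region, 10 of 10, with a median of 83.1 CPM per kb. Shb was the highest, at 152.4, 169.4 and 158.4 CPM per kb in libraries 1, 2 and 3 (mean 160.1 ± 8.6; chr4:45530814-45530908, 80 reads). The small SD hides a wide spread between samples. In technical replicate 1 the Shb region had 70.98, 0 and 260.7 CPM per kb, from 2, 0 and 8 reads. Ripk2, the kinase that relays NOD receptor signals, had 72.48, 141 and 161.3 (chr4:16163923-16164063). Tgfbr1, the type I TGF-beta receptor, had 121, 120.5 and 87.65 (chr4:47353038-47353186). Lyn, which signals from B cell and cytokine receptors, had 83.29, 70.35 and 69.83 in a region over an end of the gene (chr4:3678057-3678229). Map3k7, the kinase TAK1, was the lowest of the list at 31.75, 74.52 and 61.33, from 28 reads in a region 3860 bp from an end of the gene. Shb thus lay above Lyn and Map3k7 in each library, and Ripk2 and Tgfbr1 overlapped each other.

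All 12 transcription factor genes had a region, with a median of 73.6 CPM per kb. Bach2, a repressor in B and T cells, was the highest at 155.2, 220.8 and 160.1 CPM per kb in libraries 1, 2 and 3 (mean 178.7 ± 36.5; chr4:32588277-32588427, 2168 bp beyond an end of the gene). Zbtb5, a zinc-finger gene, had 125.7, 163.6 and 123.5 (chr4:45012282-45012605). The other factors named were low and uneven. Klf4, a zinc-finger regulator of differentiation and pluripotency, had 63.39, 90.17 and 34.01. Pax5, which sets B cell identity, had 19.9, 99.06 and 58.72 from 28 reads in all, in a region 4284 bp from an end of the gene. Runx1t1, the corepressor known as ETO, had 20.44, 34.9 and 105.3, and Tox, an HMG-box gene of T cell development, had 6.091, 90.98 and 44.12 from 24 reads. Bach2 and Zbtb5, picked as the 2 highest by mean, lay above these 4 genes in each library. The ranges of the 4 over the libraries overlapped one another, although Pax5 lay above Tox in each library.

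Of the chromatin, replication and DNA repair list 10 of 12 genes lie in the segment, all with a region and with a median of 92.5 CPM per kb. Mcmdc2 and Smarca2 lie elsewhere and were not counted. Casp8ap2, which takes part in histone mRNA production, had 131.5, 190.7 and 119.4 CPM per kb in libraries 1, 2 and 3. Its region lies 3698 bp from an end of the gene, and its value was tied in rank with that of another segment gene. A region over the promoter window of Casp8ap2 itself had a mean of 137.3 CPM per kb. Smc2, a condensin subunit, had 103.1, 69.47 and 17.47. Asph, the second highest, encodes an aspartate beta-hydroxylase and is no chromatin gene by its known role. It had 70, 188.8 and 78.25. Casp8ap2 lay above Smc2 and Asph in each library, though over Asph only narrowly in library 2. The range of Asph over the libraries overlapped those of both.

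The cell cycle list held 5 segment genes of 7, with a median of 91.6 CPM per kb. Cdc26 and Cdk20 lie outside. Its highest member, Stra6l, encodes a retinol-binding protein receptor, and its lowest, Coq3, a methyltransferase of ubiquinone synthesis, so neither is a cell cycle gene by its known role. Stra6l had 167.4, 196.4 and 215.5 CPM per kb in libraries 1, 2 and 3, in a region that also lies at the end of Ccdc180. Ccnc, the cyclin of the Mediator kinase module, had 78.29, 135.7 and 89.79, and Coq3 had 38.82, 67.31 and 78.12. Stra6l lay above both in each library.

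The immune genes had the lowest median of the 6 segment lists, 59.4 CPM per kb with 8 of 8 carrying a region. Sit1, a transmembrane adaptor of lymphocytes, was the exception at 158.6, 298.5 and 112.6 CPM per kb in libraries 1, 2 and 3. Its region lies 3663 bp from an end of the gene. In technical replicate 1 that region held 18 reads in library 2 and 0 in library 1. Cd72, a B cell coreceptor, had 124.6, 41.99 and 26.4, and Ccl21a, a ligand of CCR7, had 46.82, 18.73 and 47.1 in its only region. Ccl21a was the lowest of all 309 segment genes with a region, and reads from its near-identical gene copies are hard to place. Sit1 lay above the other two in each library.

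The housekeeping and metabolism genes all had a region, 13 of 13, with a median of 90.5 CPM per kb. Polr1e was the highest of the segment's genes. Aco1 had 211.8, 133.5 and 153 CPM per kb in libraries 1, 2 and 3 from 219 reads (chr4:40142837-40143085), and Ugcg, the glucosylceramide synthase gene, had 48.24, 70.76 and 29.12 from 25 reads. Aco1 lay above Ugcg in each library.

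Genes on the far side of 60 Mb carried fewer regions. The 7 set beside the lists (Tnc, Tlr4, Jun, Mllt3, Cdkn2a, Tal1 and Lck) all had a region, but 9 in total with a median of 1 each, against list medians of 4 to 6 in the segment. Their median value was 54.6 CPM per kb. Jun, an AP-1 subunit, had 88.07, 78.3 and 90.57, Tal1, a haematopoietic factor, 97.06, 31.07 and 46.87, and Mllt3, the gene of the fusion partner AF9, 32.27, 45.9 and 47.61. Jun lay above Lyn, which lies inside the segment, in each library, and their ranges over the libraries overlapped. The genes were chosen by hand with earlier results known, so these medians describe the lists only.

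**Figure D5:**
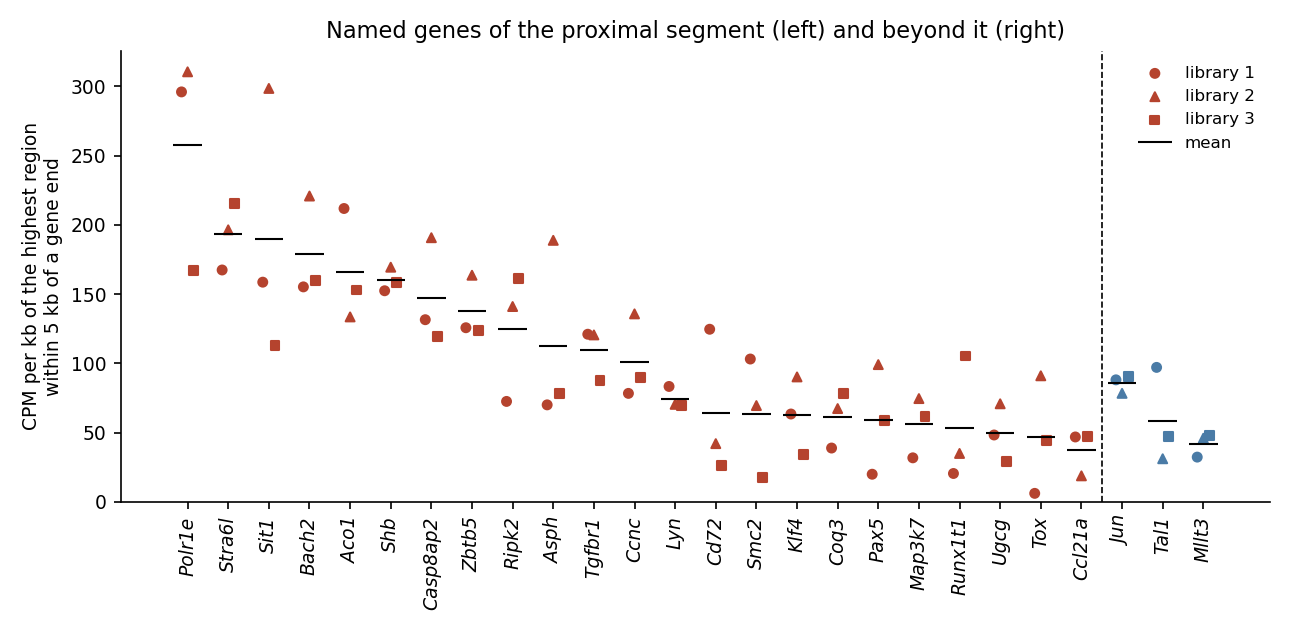
CPM per kb of the highest region within 5 kb of an end of each named gene, in each of 3 libraries (points) with their mean (line), for genes of the segment (left of the dashed line) and beyond it (right). Polr1e averages 257.8 and Ccl21a 37.55, and libraries spread widely for most genes.

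The choice of the segment did not use the contrast between technical replicates, which was tested with edgeR. Of the 8833 segment regions 2315 passed the filter on low counts. The quasi-likelihood test called 7 of them at a Benjamini-Hochberg adjusted p under 0.05, or 0.302%, against 0.259% of all 27452 regions tested. There were 3 regions higher in technical replicate 2, where 0.138% of all tested were called, and 4 lower, where 0.12% were. The segment's share was thus near that of the whole set. The median log2 difference, technical replicate 2 minus technical replicate 1, was 0.39 in the segment and 0.41 over all tested regions after TMM scaling, and 0.02 and 0.05 when reads were scaled by totals in regions. The TMM differences below are read against the first shift.

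The 4 lower regions included the 3 strongest of the segment. The region chr4:3064448-3064542 had 22.54, 19.28 and 17.66 CPM in technical replicate 2 of libraries 1, 2 and 3, against 320.3, 237.3 and 168.5 CPM in technical replicate 1. Its log2 difference was -2.92 (SE 0.286, edgeR adjusted p = 9.69e-21). The neighbours at 3065220 and 3063958 differed by -3.32 (adjusted p = 9.47e-20) and -1.56 (adjusted p = 0.000233). The fourth, chr4:21929917-21930008, 898 bp from Faxc, had 6.543, 6.171 and 6.268 CPM in technical replicate 2, against 66.72, 80.32 and 61.27 CPM in technical replicate 1 (log2 difference -2.78, SE 0.514, adjusted p = 6.62e-05). The region near Faxc passed the filter on low counts only through technical replicate 1, where it is high, so its adjusted p is description only. For each of these 4 the technical replicates did not overlap, which follows in part from picking them by this contrast. The calls stood when reads were scaled by library totals in regions, with DESeq2 and without the library block. They did not all stand with a library left out. Without library 1, 2 or 3 the segment had 2, 0 and 2 lower calls, with shares given below. In technical replicate 2 alone the first had 239.8, 205.2 and 187.9 CPM per kb, against 3407, 2525 and 1792 in technical replicate 1, while Polr1e had 300.4, 312.4 and 164.8 in technical replicate 2. The high mean at the tip thus rested largely on technical replicate 1.

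The 3 higher regions were less firm. The region at an end of Slc25a51, a mitochondrial carrier gene (chr4:45408740-45408840), had 27.63, 25.46 and 17.09 CPM in technical replicate 2, against 0, 0 and 6.127 CPM in technical replicate 1 (log2 difference 3.91, SE 0.951, adjusted p = 0.0212). The region chr4:47031942-47032239 had 29, 20 and 25 reads in technical replicate 2 and none in technical replicate 1 (adjusted p = 0.0252), so its fitted fold is no bound and is not given. The filter on low counts used these same samples. This region and the one at Slc25a51 passed it only through technical replicate 2, where they are high, so their adjusted p-values are description only. The region chr4:48043227-48043640, 1438 bp from the nuclear receptor gene Nr4a3, had 50.16, 34.71 and 22.22 CPM in technical replicate 2, against 20.02, 7.302 and 6.127 CPM in technical replicate 1 (log2 difference 2.36, SE 0.593, adjusted p = 0.0317). Scaled by totals, none of the 3 passed and the segment's split was 0 higher and 5 lower, where TMM gave 3 and 4. DESeq2 also called 0 higher and 5 lower, with an adjusted p of 0.0595 for the region near Nr4a3 and none assigned to the other two. Over all tested regions the split was 38 higher and 33 lower by TMM, 9 and 46 by totals, and 14 and 42 with DESeq2. Without library 1, 2 or 3 the segment calls numbered 2, 0 and 2. These were 0.17, 0 and 0.142% of the segment regions tested, against 0.125, 0 and 0.0462% of all. Without library 2, 50 segment regions had an unadjusted p under 0.05, or 2.78%, against 3.95% of all tested.

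In the fit between libraries, which had a term for technical replicate, edgeR called 0 of 2315 segment regions and 0.0146% of all tested. In the segment 100 regions had an unadjusted p under 0.05, or 4.32%, against 4.35% of all tested. DESeq2 called 0 as well, and 0.0146% of all tested. It gave 129 segment regions an unadjusted p under 0.05, or 5.57%, against 5.69% of all tested. No region of the segment was thus shown to differ between libraries at this depth, which does not show that the libraries were alike.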

How the data were processed

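CUT&RUN signal was measured in 6 samples of RN2 cells with an anti-IKZF2 antibody, grouped by title into 3 libraries of 2 technical replicates. The deposited tables give raw read counts over a common set of regions, with no normalization. The build is mm10 and the tools named are Bowtie2 2.3.3.1 and MACS2, per the submitters' processing notes. The sources used here do not give the role of either tool. Region names carry the words Helios and combined, but which samples lie behind the peak calls is not stated. Region starts are printed as deposited, since it is not stated whether they count from 0 or 1. In technical replicate 2, 58.0 to 61.2% of the counts from 10 upwards were even, and in technical replicate 1 84.7 to 87.4% were, so reads are not independent.

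Technical replicates were summed, scaled to CPM in regions, and averaged over 3 libraries. Other autosomes and the rest of chromosome 4 were weighted to the segment's counts in 7 width classes (edges 100, 110, 130, 160, 200 and 300 bp) by 4 distance classes (1, 5 and 50 kb to an end of the 21887 protein-coding genes of RefSeq GRCm38.p6). Correlations used log2 of CPM plus 0.5. Named regions were the 8 highest and 3 on each side of 60 Mb, and named genes the 2 highest and the lowest of each list plus Lyn, Tox, Runx1t1, Bach2, Pax5, Tgfbr1 and Klf4. Tmem8b, Faxc, Slc25a51, Nr4a3, Creb3, Tln1 and Ccdc180 were named after their values were seen. A gene of the list beyond 60 Mb is not reported here. The segment, its lists and its rules were chosen with earlier results of these data known.

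edgeR 4.0.16 (R 4.3.3; filterByExpr, TMM, quasi-likelihood) was fitted on all regions, with the library as a block between technical replicates, since the labels make both part of the same CUT&RUN. DESeq2 1.42.0 was an alternative, as were other scalings, filters, bins, no matching and leaving out each library. The tests were tried on simulated data. Python 3.11.15 with pandas 2.3.3, numpy 2.4.6, scipy 1.17.1 and (for plots) matplotlib 3.10.9 did the rest.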

Additional observations from a re-analysis of the deposited data

Results flagged for a closer look

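Values of named genes in the 6 samples were examined for a sample far from the others by Dixon's criterion for 6 values. Of the 36 regions and genes tested 2 stood out, and chance gives about 1 in 20. The region 3778 bp from Klf4 had 258 CPM per kb in technical replicate 1 of library 2, from 8 reads, against 0 to 64.3 in the other 5 samples. The region over an end of Asph had 214 CPM per kb in technical replicate 2 of library 2, from 85 reads, against 20 to 89.1 in the other 5 samples. Both high samples belong to library 2.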

How the results depend on the processing

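The matched ratios stayed above 1 under every alternative run. Without matching they were 1.13 (CPM) and 1.065 (CPM per kb) over the other autosomes and 1.112 and 1.051 over the rest of chromosome 4. With only regions of 200 bp or wider they were 1.031, 1.037, 1.041 and 1.034 in the same order, and with technical replicate 1 only 1.109, 1.123, 1.115 and 1.127. These 12 values moved by more than 1 SD of the libraries; the other 48 did not. The density ratio over the rest of chromosome 4 lay between 2.282 and 3.748 under 5 alternatives. CPM in regions per Mb was 3.001 times the rest of chromosome 4 in technical replicate 1 only. The step moved to 62 Mb in the number of regions without the bins at 60 and 61 Mb, an alternative chosen after seeing the data. Segment calls between technical replicates numbered 7, against 4 with no filter on low counts and 0 to 2 with a library left out. With no filter these 4 (0 higher, 4 lower) were 0.0453% of segment regions, against 0.0304% of all. With no replicate block 6 were called (2 higher, 4 lower) in place of 7, or 0.259% against 0.182% of all tested. The region near Nr4a3 was lost (edgeR adjusted p = 0.0775), and the block changed no other call of the 7. The difference between technical replicates in the matched ratio kept its sign under 6 alternatives (-0.049 to -0.0302). Low counts in technical replicate 1, hardly correlated libraries, control antibody samples not analysed here and the Mup array limit what single regions and the exact boundary can show.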
